A study of Homo sapiens with 6 samples.

Results

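The ERBB receptors are 4 receptor tyrosine kinases, EGFR, ERBB2, ERBB3 and ERBB4. With them, 5 genes for their ligands (AREG, EREG, HBEGF, TGFA and NRG1) and ERRFI1, a cytoplasmic inhibitor of the receptor kinases, were chosen by gene symbol. These 10 genes were found among the 58825 genes of the expression table, and 9 of them passed the filter on low counts. The study asked what knockdown of EIF5A2, a translation factor gene, does in SKOV3, a human ovarian cancer cell line. Cells were given either a control siRNA (NC, 3 libraries) or an siRNA against EIF5A2 (si-EIF5A2, 3 libraries) by transfection, with no other treatment named, and RNA was taken after 48 hours. All 6 libraries are from 1 established line, and no source used here says whether replicates were separate cultures, so p-values measure only the spread between these libraries, which may be technical.

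ERBB receptors sit in the plasma membrane and pair with each other once a ligand binds. EGFR is bound by the ligands of the EGF type, such as HBEGF, AREG, TGFA and EREG, while ERBB3 and ERBB4 are bound by neuregulins such as NRG1, and HBEGF and EREG also bind ERBB4. ERBB2 has no known ligand of its own and acts as the partner of the others. The ligands are made as membrane proteins and are cut free by proteases of the ADAM family, and the active receptors signal through RAS and ERK, PI3K and AKT, and STAT proteins. In epithelial cancers this family is known for receptor amplification and for loops in which a cell answers to its own ligand.

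In these libraries, 3 of the 5 ligands differed between the groups and the receptors that could be measured well did not pass the test. HBEGF was 2.61-fold higher and TGFA 1.63-fold higher in si-EIF5A2 than in NC libraries. AREG was 6.54-fold higher, from a level near the limit of detection. A gene was called where edgeR's quasi-likelihood test gave a Benjamini-Hochberg adjusted p under 0.05 over the 16208 genes tested and the fold change was over 1.5. By this rule 3 of the 9 genes tested (33.3%) were called, all 3 higher, where 24.6% of all genes tested were called, 11.1% higher and 13.6% lower in si-EIF5A2. With only 9 genes, 3 calls are a share near the background, and the values of the single genes carry more than their count. The median log2 fold change of the 9 genes was 0.45, against -0.01 for all genes tested, but this median is the value of EREG, which was too low to measure well.

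Values are given in CPM, which are counts scaled to a common library size, and levels of different genes are compared only per kilobase (kb) of exon. The libraries held 46900204 to 74142267 deposited counts. Small values cluster at multiples of about 3.7 counts, so depth was taken as 12700000 to 20100000 fragments, and NC replicates 1 and 2 were the deepest. EIF5A2 itself had a log2 fold change of -2.98, with every si-EIF5A2 library below every NC library (edgeR adjusted p = 1.6e-05). Markers of other cell types were low: PTPRC, CD3E, ADIPOQ and PLIN1 had 0 CPM in every library, and the 8 endothelial and fibroblast markers had group means of 0 to 1.87 CPM, although CD68 had 46.3 CPM in NC, against 39.1 CPM in si-EIF5A2. Of the markers of an ovarian epithelial line, KRT7 and KRT8 had 382 and 608 CPM in NC and were called lower, KRT18 had 418 CPM, and PAX8 fell from 106 to 61.0 CPM. EPCAM (1.55 CPM in NC), CDH1 (0.663 CPM), MSLN (0.666 CPM), WT1 (2.36 CPM) and MUC16 (0 CPM) were low or absent.

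The window of 250 bases before the start annotated in RefSeq is shown for HBEGF and AREG, the ligands with the largest differences, because these stretches hold contrasting base patterns. The sequences are from RefSeq on build GRCh38.p14, read 5′ to 3′ on the strand of the gene. Capitals mark matches on either strand to the letters searched. The HBEGF window lies on the minus strand at chr5:140346604-140346853, and the AREG window on the plus strand at chr4:74444886-74445135. Positions count from the RefSeq start, and both windows reach slightly past the start of the gene bounds given below.
HBEGF: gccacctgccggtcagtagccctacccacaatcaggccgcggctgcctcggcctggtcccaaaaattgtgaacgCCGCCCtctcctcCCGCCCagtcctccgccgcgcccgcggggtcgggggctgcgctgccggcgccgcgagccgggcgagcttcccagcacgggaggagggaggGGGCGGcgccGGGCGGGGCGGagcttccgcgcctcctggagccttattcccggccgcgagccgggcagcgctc
AREG: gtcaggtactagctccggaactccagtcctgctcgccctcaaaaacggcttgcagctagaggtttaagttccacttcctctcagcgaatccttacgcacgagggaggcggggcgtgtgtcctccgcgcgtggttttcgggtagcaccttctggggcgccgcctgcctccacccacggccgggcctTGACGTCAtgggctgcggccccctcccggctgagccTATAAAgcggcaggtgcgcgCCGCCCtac
The AREG window holds a CRE (TGACGTCA, the cyclic AMP response element) that begins at position -65 from the start, a TATA box (TATAAA) at -29, and a GC box (GGGCGG, read here on the other strand as CCGCCC) at -9. Among 35116 windows of this length, 1.65% hold the CRE, 10.7% the TATA box and 42.6% the GC box. The HBEGF window holds 5 GC boxes, at -176, -163, -73, -63 and -58, of which the last pair overlaps, and its GC content was 76.4%, against 65.2% for AREG and a median of 58.0% over all windows. Also searched on both strands were AP-1 (TGANTCA, in 6.57% of windows), the EGR1 motif (GCGNGGGCG, 8.41%), E2F (TTTNGCGC, 1.51%) and the E-box (CACGTG, 6.34%), none of which is in either window. Of the 10 genes, 8 matched an entry, and ERBB3 and NRG1 did not. EREG shared the TATA box with AREG, at -32, and TGFA had 3 GC boxes in 1 of its 2 windows. These motifs were not limited to ligands. EGFR had 2 GC boxes in 1 window, and 2 TATA boxes and 2 AP-1 matches in another. ERBB2 had an AP-1 match, and ERBB4 and ERRFI1 had a GC box each. A match is a description of letters and not a site shown to be bound.

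HBEGF, on chromosome 5 from 140332843 to 140346631 (GRCh38), encodes heparin-binding EGF-like growth factor, a ligand of EGFR and ERBB4. It had 74.0, 66.8 and 72.8 CPM in NC replicates 1 to 3 and 192, 179 and 186 CPM in si-EIF5A2 replicates 1 to 3. Every si-EIF5A2 library was far above every NC library, and the spread within each group was small beside the gap between them. The log2 fold change was 1.38 (SE 0.08, edgeR adjusted p = 1.07e-05), which is a fold change with a 95% interval of 2.32 to 2.94. In the fits that left out each library in turn it stayed between 1.34 and 1.41.

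TGFA, on chromosome 2 from 70447280 to 70554193, encodes transforming growth factor alpha, which binds EGFR. Its level was 12.7, 11.7 and 12.1 CPM in NC, against 20.8, 18.4 and 20.2 CPM in si-EIF5A2 libraries. The groups did not overlap, and the lowest si-EIF5A2 library stood well above the highest NC library. TGFA had a log2 fold change of 0.70 (SE 0.11, edgeR adjusted p = 0.00148), a fold change with a 95% interval of 1.37 to 1.93. It therefore did not reach the fold change limit of 2 in the study's methods.

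AREG, on chromosome 4 from 74445134 to 74455009, encodes amphiregulin, a ligand of EGFR. The deposited counts were 42, 51 and 15 in NC and 184, 215 and 136 in si-EIF5A2 libraries. These stand for a small number of fragments per NC library, and NC replicate 3, the lowest, was also the shallowest library. In CPM the values were 0.575, 0.720 and 0.319 in NC and 3.60, 4.12 and 2.84 in si-EIF5A2 libraries. All si-EIF5A2 libraries were above all NC libraries. The log2 fold change was 2.69 (SE 0.35, edgeR adjusted p = 0.000642), and its 95% interval in fold change was wide, from 3.69 to 11.3. Leaving out NC replicate 3 gave 2.43, leaving out NC replicate 2 gave 2.95, and AREG was called in each fit that left out a library.

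EREG, on chromosome 4 from 74365143 to 74388751 beside AREG, encodes epiregulin, which binds EGFR and ERBB4. It had 12, 27 and 0 counts in NC and 0, 27 and 12 counts in si-EIF5A2 libraries. The groups overlapped completely, with a library at 0 in each. The log2 fold change of 0.45 (SE 1.43) did not pass the test (edgeR adjusted p = 0.842), and its fold change interval from 0.136 to 13.8 covers large changes in either direction, so a difference was not detectable at this depth. Of the other ligand genes of this cluster on chromosome 4, EPGN had 0 counts in every library and BTC had a log2 fold change of 0.12 (edgeR adjusted p = 0.85), so among these 4 neighbouring genes AREG was the called member.

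NRG1 encodes neuregulin 1, a ligand of ERBB3 and ERBB4. It had 2.89, 6.65 and 4.68 CPM in NC, against 6.40, 4.89 and 7.32 CPM in si-EIF5A2 libraries. The groups overlapped, and the NC libraries spread more widely than the group means differed. Its log2 fold change was 0.39 (SE 0.31, edgeR adjusted p = 0.381), with a fold change interval of 0.794 to 2.15, and leaving out NC replicate 1 or NC replicate 2 moved it to 0.13 or 0.71.

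**Figure D1:**
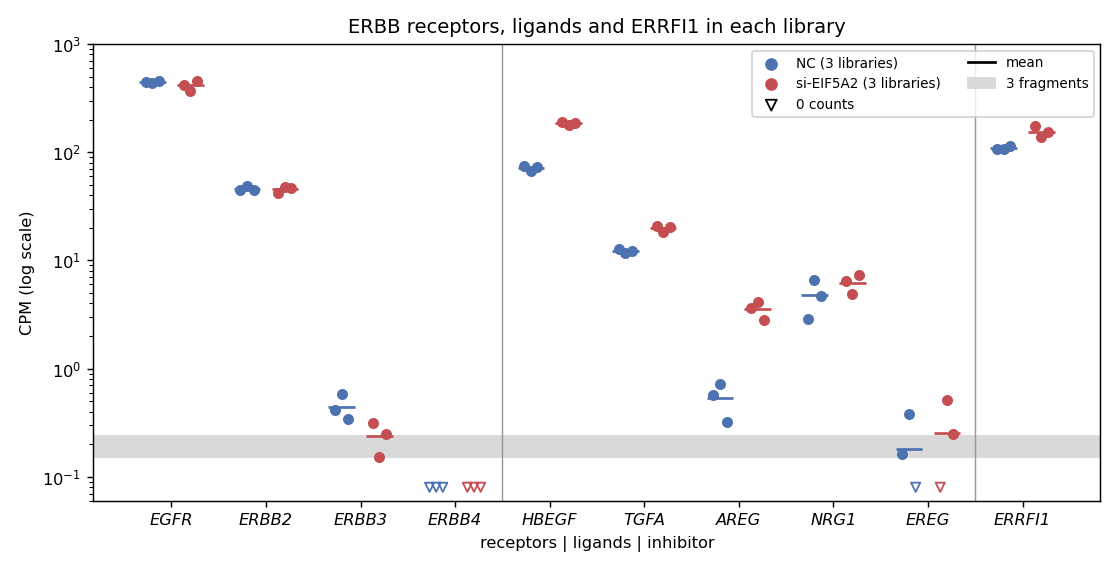
CPM (log scale) of the 10 genes in each of the 6 libraries, with receptors at left, ligands in the middle and ERRFI1 at right; points are libraries, short lines group means, open triangles libraries at 0 counts and the grey band the level of 3 fragments. HBEGF, TGFA, AREG and ERRFI1 show si-EIF5A2 points above all NC points, while EGFR and ERBB2 points overlap.

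EGFR, on chromosome 7 from 55019021 to 55211628, was the most abundant receptor transcript per kb of exon. Its level was 442, 439 and 459 CPM in NC, against 422, 371 and 452 CPM in si-EIF5A2 libraries. The groups overlapped, with si-EIF5A2 replicate 2 the lowest and NC replicate 3 the highest. Its log2 fold change was -0.10 (SE 0.09, edgeR adjusted p = 0.391), and the 95% interval of the fold change, 0.811 to 1.07, bounds the size of any difference. EGFR lies near SEC61G, LANCL2 and VOPP1 on chromosome 7. VOPP1 rose from 67.8 to 188 CPM (log2 fold change 1.47, edgeR adjusted p = 1.18e-05), SEC61G had 0.56 and LANCL2 -0.20, neither of them called.

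ERBB2, on chromosome 17 from 39687914 to 39730426, had 44.7, 48.6 and 44.5 CPM in NC, against 42.1, 47.9 and 46.2 CPM in si-EIF5A2 libraries. The groups overlapped over most of their range. Its log2 fold change was -0.02 (SE 0.09, edgeR adjusted p = 0.908), with a fold change interval of 0.857 to 1.14.

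ERBB3, on chromosome 12 from 56076799 to 56103505, encodes a receptor with little kinase activity of its own that signals through its partners. It had 30, 41 and 16 deposited counts in NC and 16, 8 and 12 in si-EIF5A2 libraries, which is 0.411, 0.579 and 0.340 CPM in NC, against 0.313, 0.153 and 0.250 CPM in si-EIF5A2. All si-EIF5A2 values were below all NC values, but each rests on a handful of fragments. The log2 fold change of -0.89 (SE 0.59) did not pass the test (edgeR adjusted p = 0.283), and the fold change interval was 0.21 to 1.38. ERBB4, a neuregulin receptor gene on chromosome 2, had 0 counts in all 6 libraries and was not tested. A count of 0 allows up to 3 fragments, which is 0.152 to 0.236 CPM per library, and this limit covers counting error only.

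ERRFI1, on chromosome 1 from 8004404 to 8026308, encodes MIG6, which binds the kinase domain of EGFR and ERBB2 and blocks it. Its level was 107, 108 and 114 CPM in NC, against 173, 139 and 153 CPM in si-EIF5A2 libraries. The groups did not overlap. ERRFI1 had a log2 fold change of 0.50 (SE 0.09, edgeR adjusted p = 0.00406), so it passed the adjusted p, but its fold change of 1.41 (95% interval 1.21 to 1.64) was under the limit of 1.5. At an adjusted p under 0.05 with no limit on the fold change, 4 of the 9 genes passed, all higher, beside 36.9% of all genes tested in either direction and 18.0% higher. The library ranges did not overlap in 5 of the 9 genes, 4 with si-EIF5A2 above NC and ERBB3 with si-EIF5A2 below, beside 51.2% of all genes in either direction and 24.7% with si-EIF5A2 above. RNA of whole cultures was measured, so a change in the cells that make a transcript and a change in RNA per cell cannot be told apart, nor do these values measure protein, ligand release or receptor activity.

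**Figure D2:**
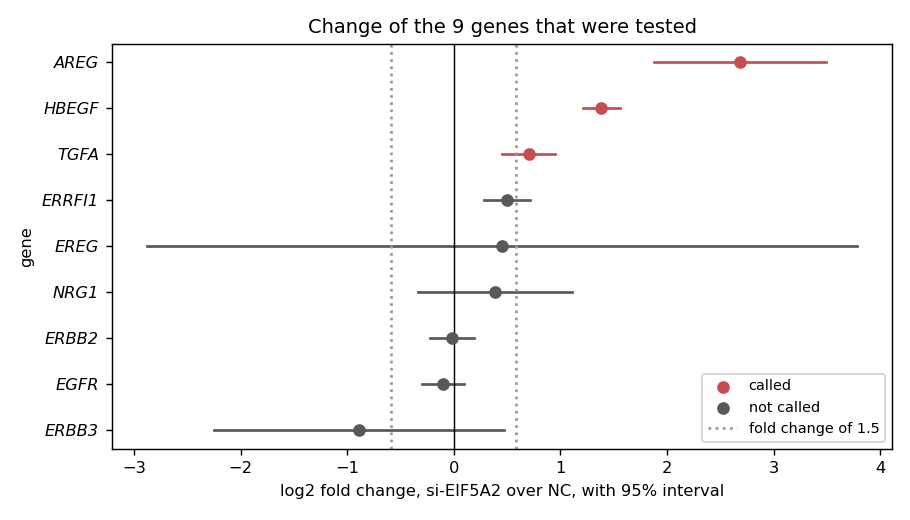
Log2 fold change of si-EIF5A2 over NC for the 9 genes tested, with 95% intervals and dotted lines at a fold change of 1.5. AREG, HBEGF and TGFA (red) were called; the intervals of EGFR and ERBB2 are short and lie across 0, and those of EREG, ERBB3 and NRG1 are wide.

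Per kb of exon, the receptor transcripts were mostly EGFR. The 4 receptors summed to 40.2 ± 0.714 CPM per kb (SD, n = 3) in NC and 37.6 ± 3.17 CPM per kb (SD, n = 3) in si-EIF5A2 libraries. EGFR took 88.8 ± 0.695% of this sum in NC and 88.2 ± 1.51% in si-EIF5A2 (SD, n = 3 each). ERBB2 took 11.1 ± 0.66% and 11.8 ± 1.52%, and ERBB3 0.122 ± 0.035% and 0.0697 ± 0.0211%. The EGFR and ERBB2 shares overlapped between them.

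The ligand transcripts were mostly HBEGF. For this sum the 6 listed ligands outside the chosen genes (EGF, BTC, EPGN, NRG2, NRG3 and NRG4) were added, giving 11 ligands. Together they had 28.9 ± 1.28 CPM per kb in NC and 69.8 ± 2.22 CPM per kb in si-EIF5A2 libraries (SD, n = 3 each). HBEGF accounted for 23.6 ± 1.29 CPM per kb in NC and 61.6 ± 2.11 CPM per kb in si-EIF5A2, so its share was 81.7 ± 0.872% and 88.3 ± 0.646%, with no overlap. TGFA was next in order, with 2.45 and 3.99 CPM per kb, and its share was 8.5% in NC and 5.72% in si-EIF5A2. AREG had 0.327 CPM per kb in NC, below NRG2 (1.53), BTC (0.469) and NRG1 (0.418), although NRG1, BTC and AREG overlap among the NC libraries. In si-EIF5A2, AREG had 2.13 ± 0.392 CPM per kb (SD, n = 3), above NRG2 with 0.835 CPM per kb in every library. The level ratio of HBEGF to EGFR per kb was 0.696, 0.631 and 0.659 in NC and 1.89, 2.0 and 1.71 in si-EIF5A2 libraries. HBEGF transcripts were thus below EGFR transcripts per kb in each NC library and above them in each si-EIF5A2 library. This order rests on exon lengths of 3.02 kb for HBEGF and 12.5 kb for EGFR, each a union of all annotated exons. Without division by length HBEGF was below EGFR in both groups. It had 71.2 against 447 CPM in NC and 186 against 415 CPM in si-EIF5A2. These ratios and shares carry no test.

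**Figure D3:**
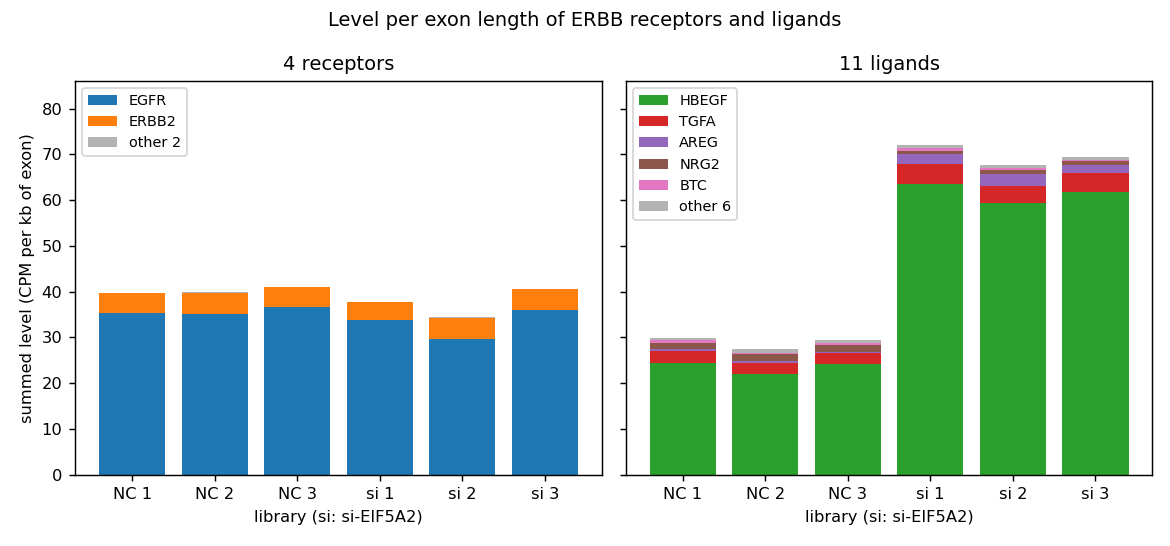
Summed level in CPM per kb of exon of the 4 receptors (left) and the 11 ligands (right), 1 bar per library, coloured by gene. The receptor bars stay between 34.3 and 41.0, mostly EGFR, while the ligand bars are at 27.4 to 29.8 in NC and 67.8 to 72.1 in si-EIF5A2, mostly HBEGF.

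The line SKOV3 is known for amplification of ERBB2. In these libraries ERBB2 had 4.45 CPM per kb in NC, which placed it at percentile 60.1 of the genes tested, with 6457 of 16176 genes higher per kb. EGFR, with 35.7 CPM per kb, stood at percentile 92.4. Of 26 listed genes around ERBB2 on chromosome 17, 13 had a higher level per kb than ERBB2. These 13 are all among the 19 neighbours that were tested. The median of all 26 was 4.64 CPM per kb, which takes in neighbours at or near 0 that did not pass the filter. The median of 2.74 CPM per kb over all genes tested leaves such genes out, so these medians cannot be set side by side. GRB7, an adaptor gene beside ERBB2 that is usually amplified with it, had counts in 3 of 6 libraries and 0.0324 CPM per kb in NC. CDKN2A, often deleted in this line, had group means of 0 and 0.0516 CPM. The ERBB2 and GRB7 transcript levels go against what the label leads to, so the cells are called here cells labelled SKOV3, and copy number was not measured. Among the genes around ERBB2, 4 of the 19 neighbours tested (21.1%) were called, below the 24.6% of all genes tested: THRA (log2 fold change -1.76), CDC6 (-1.21) and STARD3 (-0.96) lower, and CSF3 (1.58) higher.

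**Figure D4:**
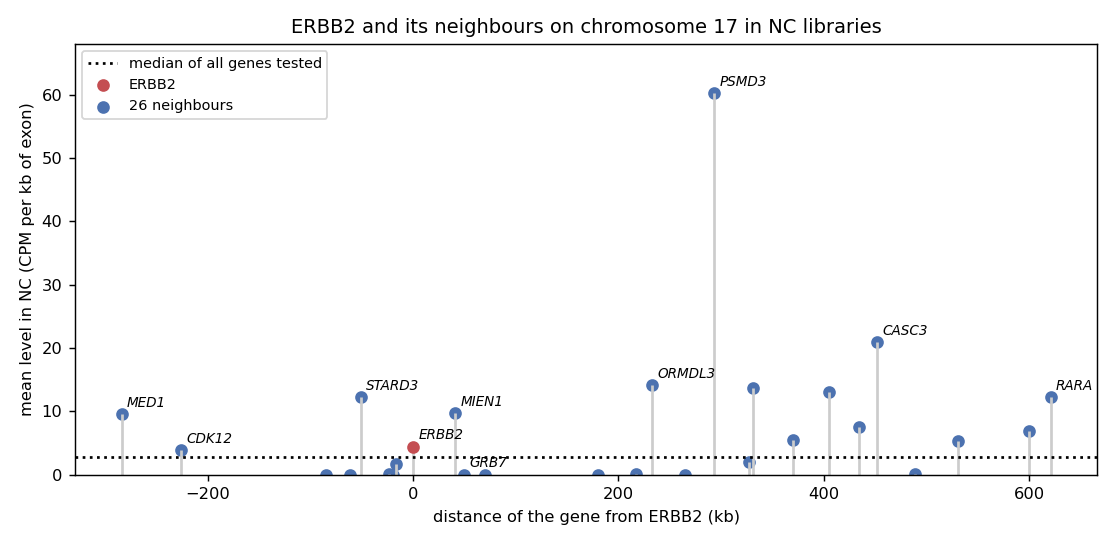
Mean level in NC libraries, in CPM per kb of exon, of ERBB2 (red) and 26 neighbouring genes (blue), by distance of the gene from ERBB2 in kb. ERBB2 at 4.45 is not the peak of the region: 13 neighbours, PSMD3 (60.2) and STARD3 (12.2) among them, lie above it, and GRB7 lies near 0.

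Some of these genes share exon bases with others, so their counts are less certain where strand was not used in counting, which is not given in the sources used here. ERBB2 overlaps MIEN1 by 571 bases and PGAP3 by 194 bases, EGFR overlaps EGFR-AS1 by 186 bases, and ERRFI1 overlaps AL034417.4 by 155 bases, each on the opposite strand. ERBB3 shares 31 bases with AC034102.2 on the same strand. HBEGF, TGFA, AREG and EREG had no such overlap.

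Other ligand genes were tested in 3 of 6 cases. NRG2, a neuregulin that binds ERBB3 and ERBB4, fell from 6.60, 6.35 and 7.74 CPM in NC to 3.60, 3.87 and 3.86 CPM in si-EIF5A2 libraries, with a log2 fold change of -0.87 (edgeR adjusted p = 0.00321), with no overlap. It was thus called in the opposite direction to the 3 ligands above, and its exons overlap those of AC008667.2 on the other strand by 234 bases. EGF, the ligand that names the receptor, had 0 to 0.362 CPM in NC and 0.396 to 0.805 CPM in si-EIF5A2 and a log2 fold change of 1.65 that did not pass the test (edgeR adjusted p = 0.279). EPGN and NRG3 had 0 counts in all libraries, with the same limit as ERBB4, and NRG4 had 26 counts in NC replicate 1 and 4 in si-EIF5A2 replicate 2 alone.

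Of the 9 tested genes that cut ligands free or guide the proteases, 2 were called higher and 1 lower (33.3%, beside 24.6% of all genes tested). ADAM17, the main protease for HBEGF, AREG and TGFA, had 35.1, 43.5 and 60.0 CPM in NC, against 58.3, 61.3 and 65.9 CPM in si-EIF5A2 libraries. The groups overlapped and ADAM17 was not called, with a log2 fold change of 0.42 (edgeR adjusted p = 0.121). ADAM17 shares 1323 exon bases with IAH1 on the opposite strand. ADAM9 rose from 106 to 178 CPM (log2 fold change 0.74) and RHBDL2, a rhomboid protease gene, from 1.80 to 3.59 CPM (0.997), while ADAM12 fell from 19.5 to 6.81 CPM (-1.52, edgeR adjusted p = 0.000508). ADAM15 (-0.57) and RHBDF1 (-0.57), which encodes a partner of ADAM17, passed the adjusted p below the fold change limit, as did ADAM10 (0.33) and FRMD8 (-0.33), and RHBDF2 (0.31) did not pass. The number called in this list became 6 when NC replicate 3 was left out and 1 when si-EIF5A2 replicate 3 was, so it depends on single libraries.

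Among 40 tested adaptors and kinases downstream of the receptors, 6 were called higher and 3 lower, with a median log2 fold change of 0.18. This is 22.5% of the list, near the 24.6% of all genes tested. STAT3, a transcription factor that active receptors can phosphorylate, rose from 87.0, 85.0 and 83.8 CPM to 199, 203 and 202 CPM, with a log2 fold change of 1.24 (edgeR adjusted p = 9e-06). The adaptor genes SHC3 (0.91) and NCK2 (0.81) and PTPN11 (0.69), the gene for the phosphatase SHP2, were higher. Subunits of PI3K were called in both directions, PIK3R3 (-1.69) and PIK3CB (-0.70) lower and PIK3CD (0.62) higher, and PIK3R3 shares 1292 exon bases with AL358075.4 on the same strand.

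Of 26 tested genes that stabilise, degrade or inhibit the receptors, 7 were called higher and 1 lower, with a median log2 fold change of 0.16. This is 30.8% of the list, beside 24.6% of all genes tested. HSP90AA1, a chaperone known to stabilise ERBB2 and whose pseudogenes may share reads with it, rose from 751 ± 52.8 CPM in NC to 2030 ± 44.5 CPM (SD, n = 3 each), and its log2 fold change was 1.43 (edgeR adjusted p = 9e-06). Of the genes for inhibitors and ubiquitin ligases, some were called higher, among them LRIG1 (0.88), SOCS3 (0.86), RNF41 (0.83), the ligase for ERBB3, and CBLB (0.73). LRIG3 (-0.91) was called lower, and CBL (0.09), SOCS2 (-0.52), SOCS4, SOCS5 and LRIG2 were not called. LRIG1 shares 907 exon bases with SLC25A26 on the opposite strand.

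Genes that ERK signalling is known to induce moved in both directions. Of 10 tested, 4 were called higher and 4 lower (80.0%, beside 24.6% of all genes tested), and the median log2 fold change was 0.12. SPRY2 (0.94), DUSP6 (0.93), EPHA4 (0.67) and SPRY4 (0.61) rose, and DUSP4 (-1.08), ETV4 (-1.02), CCND1 (-0.78) and ETV5 (-0.63) fell. EPHA2 (-0.37) passed the adjusted p below the fold change limit, and PHLDA1 (0.63) did not pass, with libraries from 178 to 507 CPM that overlapped. DUSP6 shares 1875 exon bases with AC024909.2 on the opposite strand.

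Of 7 tested transcription factors known to act at genes of this family, EGR1 and TFAP2C were called higher and FOXO1 lower (42.9%, beside 24.6% of all genes tested). EGR1, an immediate early gene, had 2.08, 1.82 and 1.74 CPM in NC, against 55.8, 46.9 and 48.3 CPM in si-EIF5A2 libraries, with a log2 fold change of 4.74 (edgeR adjusted p = 4.18e-06). TFAP2C had 0.96 and FOXO1 had -1.02, while FOXO3 (0.12), SP1 (-0.37) and FOXO4 (0.47) were not called. TFAP2A, at 1.99 CPM in NC against 1.03 CPM in si-EIF5A2, had -0.96. It just missed the adjusted p (edgeR adjusted p = 0.0517), although all its si-EIF5A2 values were below all NC values. Over all lists without the 10 chosen genes, 37 of 116 genes tested (31.9%) were called, 23 higher and 14 lower, beside the 24.6% of all genes.

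**Figure D5:**
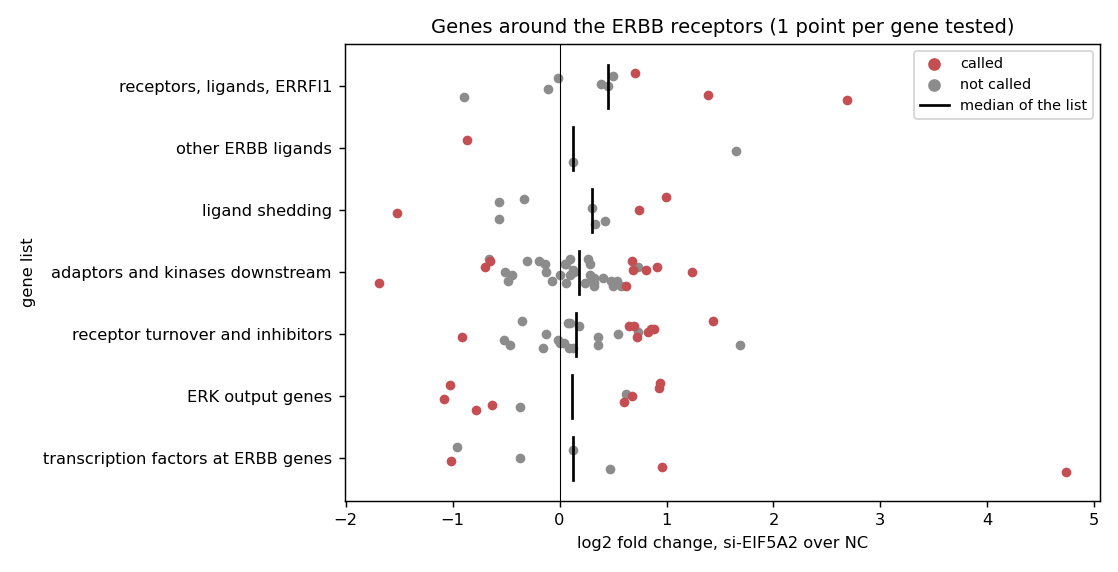
Log2 fold change of si-EIF5A2 over NC for each tested gene of the chosen genes and 6 lists around them; red points were called and the black bar is the median of a list. Points lie on both sides of 0 in every list, and EGR1 at 4.74 lies farthest to the right.

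The likeness of expression patterns was described over the 6 libraries by Pearson's r of log2 CPM with every gene tested, for the members with at least 10 CPM on average. The libraries are 2 groups, so for genes that differ between them r mainly restates that difference, and no p is given. HBEGF was closest to LNCOG (r = 0.9998), SHISA9 (0.9996) and CXCL1 (0.9996). TGFA was closest to HIVEP2, USP53 and SDCCAG8 (0.9993 each) and ERRFI1 to PANK3 (0.9985), TARS1 (0.9985) and APPBP2 (0.9978). For the receptors, whose groups overlap, the closest were PRMT5-AS1 (0.9912), ZFP30 (0.9879) and PCDHGA11 (0.9876) for EGFR, and ENSG00000258790 (0.9842), HTRA1 (0.9825) and ETFB (0.9755) for ERBB2. All these matches are the top 3 of 16208 genes over 6 libraries, and how high r reaches by chance was not tested. The floor of 10 CPM was set for the members and not for their matches. PCDHGA11 had low group means, 0.50 (NC) and 0.18 (si-EIF5A2) CPM, where 3 fragments stand for 0.152 to 0.236 CPM.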

How the data were processed

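RNA was measured in 6 libraries of cells labelled SKOV3, 3 NC and 3 si-EIF5A2, grouped by the treatment label. The authors sequenced mRNA as paired reads of 150 bases, used StringTie with ballgown, and deposited a table of estimated counts for each gene, already whole numbers and not normalized. The aligner and genome build behind the table are not given in the sources used here. The submitters' processing notes name Bowtie 0.12.2 and the mouse builds mm8 and mm9, which do not match a table of human gene identifiers.

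From the deposited estimated counts, edgeR 4.0.16 in R 4.3.3 was run with filterByExpr, TMM normalization, condition as the only term, robust quasi-likelihood tests and Benjamini-Hochberg adjustment over 16208 genes. The test had been planned for counts, and rounding changed no value. Calls needed an adjusted p under 0.05 together with a fold change over 1.5. The common biological coefficient of variation was 0.261. The steps were tested on simulated data. Each standard error was obtained from the log2 fold change and the square root of its F statistic. Exon lengths are the union of all exons in GENCODE release 29 (GRCh38), and log2 CPM used a prior count of 2. Depth was 12700000 to 20100000 fragments per library.

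The 10 genes, the lists and the motifs were chosen with earlier results of these data known. Named genes are the 10, EIF5A2, in each list up to 6 called genes with the largest absolute log2 fold change (or any gene tested in lists with fewer than 12 tested), the 3 genes with the highest Pearson correlation to each of the 10 that averaged at least 10 CPM, and genes that overlap one of the 10 in exons. HSP90AB1, PIK3CD, CBL, SOCS2, SOCS4, SOCS5 and LRIG2 were added after their values were seen. Marker genes come from a list of their own, of which some members are not reported here. Genes around ERBB2 shown for their level and genes overlapping a listed gene do not come from this rule and were picked with their values known. Alternatives were DESeq2 1.42.0, upper-quartile or RLE normalization, scaling by library size alone, other filters on low counts, the replicate number as a block, other thresholds, counts divided by their step, identifiers with the same symbol summed, and leaving out each library in turn.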

Additional observations from a re-analysis of the deposited data

How the results depend on the processing

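AREG, HBEGF and TGFA were called as reported and in 16 of 17 alternatives, all with a higher level in si-EIF5A2. With the threshold of the study's methods (a fold change over 2 or under 0.5, with p under 0.05 before adjustment), TGFA (log2 fold change 0.70) was not called, so 2 of the chosen genes passed, 2370 genes passed in all, and 13 of the other listed genes against 37. With no limit on the fold change, ERRFI1 (0.50) also passed, and 63 of the other listed genes. EREG and ERBB3 were not in the fits with at least 10 counts in every library or with counts divided by their step. Over the alternatives the log2 fold change lay between 1.34 and 1.41 for HBEGF, 0.66 and 0.75 for TGFA, 2.43 and 2.95 for AREG, 0.40 and 0.57 for ERRFI1, -0.18 and -0.03 for EGFR, and -0.06 and 0.03 for ERBB2. EREG was -0.57 without si-EIF5A2 replicate 2 and 1.54 without NC replicate 2, not called in either. The median of all genes moved by less than 0.1 under every scaling. Without dividing by exon length, the EGFR share of the receptors was 90.6% in NC and 90.0% in si-EIF5A2, the ERBB2 share 9.32% and 9.92%, the HBEGF share of the ligands 73.1% and 83.9%, and the TGFA share 12.5% and 8.93%. For genes on chromosome 7 near EGFR, leaving out NC replicate 3 gave 2 calls against 1. Depth limits EREG, ERBB3 and ERBB4, for which a difference could not be detected.

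No pairing of the samples by replicate number was visible: the correlations of deviations between same-numbered libraries were -0.0244, 0.00522 and -0.00269, and no library matched its own number best. These values cannot settle whether cultures were handled in pairs, which no source used here says. With the replicate block 3731 genes were called against 3992, the same 3 of the chosen genes, and 37 of the other listed genes.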
